A study of Mus musculus with 9 samples.

Results

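The small RNA libraries of tibialis anterior (TA) muscle were searched for both arms of the hairpins miR-143 and miR-145a, the members of one miRNA cluster that is a marker of vascular smooth muscle and pericytes. The 4 arms were taken by name from the count tables: mmu-miR-143-3p, mmu-miR-143-5p, mmu-miR-145a-5p and mmu-miR-145a-3p, which are 4 of the 1915 mature miRNAs listed. Of these, 3 passed the study's criterion for an expressed miRNA, more than 32 counts in at least 1 library, as did 304 of all 1915. The fourth, miR-143-5p, did not pass it and is given by its counts. The members were taken by name and not by a difference between the groups, though earlier results of these data were known.

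The control group held 4 mice injected with PBS in each flank, and the LLC group held 5 mice that carried tumors 22 days after Lewis Lung Carcinoma cells, a mouse lung carcinoma line, had been injected in each flank. The sample labels give C57BL/6J mice of 10 weeks for both groups, whereas the series text gives C57BL/10 males of 8 weeks. The labels give tumor development as 0 days for every control library and 22 days for every LLC library, while the series text has both groups studied at 22 days, so the day on which the control muscles were taken is not settled here. Mice are named by group and label number, and the LLC mice are 1, 2, 3, 5 and 6. The labels name no transgene or deletion in either group, and all tumors were grown from 1 cell line, so the LLC group stands for that line only. Total counts per library ranged from 4992339 to 7833161.

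A miRNA hairpin is cut into 2 arms, and usually one, the guide arm, is loaded into the silencing complex while the other, the passenger arm, is degraded. In vessels, miR-143 and miR-145 are made together from one primary transcript that serum response factor and myocardin drive, and they hold smooth muscle cells in the contractile state by acting on Klf4, Klf5, Elk1 and actin regulators. In whole muscle the fibers make up most of the tissue, and mural cells, the smooth muscle cells and pericytes around the endothelium, are a small part. The count tables hold miRNAs alone, so the source of the reads in mural cells was not tested with smooth muscle mRNAs. In bulk muscle, more cells of a type and more of the miRNA per cell cannot be told apart.

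The hairpin genes lie on chromosome 18 of GRCm38, on the minus strand. Mir143 spans positions 61649196 to 61649258 (63 bp) and Mir145a spans 61647825 to 61647894 (70 bp), with 1301 bp between them. Both lie within the span of Carmn, a long noncoding RNA gene that RefSeq places from 61645878 to 61665538. In the GENCODE vM21 annotation neither hairpin overlapped another gene, since the Carmn model there does not extend to them, and whether they lie in an exon or an intron of the RefSeq transcript was not tested. A related hairpin, Mir145b, lies from 69022199 to 69022273 on the same chromosome.

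The guide arm of miR-143 was among the most abundant miRNAs of the muscle, and the guide arm of miR-145a was far less abundant. Levels in CPM, the counts of a miRNA scaled to a common library size, are given after TMM normalization, which rescales each library so that most miRNAs keep their level. By mean CPM over the 9 libraries, miR-143-3p was number 6 of the 304 expressed miRNAs, miR-145a-5p number 34 and miR-145a-3p number 97. Within single libraries miR-143-3p ranked between 3 and 7, miR-145a-5p between 28 and 38 and miR-145a-3p between 90 and 133. Together the 4 arms held 5.02 to 8.32% of all counts in a library, the least in control 4 and the most in LLC 1. Each miRNA is ligated and amplified with its own efficiency, so levels of different miRNAs are levels in the libraries and not numbers of molecules in the muscle.

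The counts of miR-143-3p were 369788, 392764, 358585 and 239957 in control mice 1 to 4, and 551823, 300748, 449185, 341383 and 593987 in LLC mice 1, 2, 3, 5 and 6. After normalization these became 50076, 52020, 63495 and 47408 CPM in the control mice. The LLC mice had 93177 CPM in mouse 1, 48990 in mouse 2, 59667 in mouse 3, 67388 in mouse 5 and 68094 in mouse 6. LLC 1, 5 and 6 lay above every control mouse, while LLC 2 and 3 lay within the control range, so the groups overlapped. The mean was 53250 ± 7087 CPM in control mice (SD, n = 4) and 67463 ± 16307 CPM in LLC mice (SD, n = 5). The log2-fold change was 0.34 (standard error, SE, 0.181), which is 1.27-fold with a 95% interval of 0.970 to 1.66, and the adjusted p was 0.320 (edgeR's quasi-likelihood test, Benjamini-Hochberg over the 304). The difference of miR-143-3p thus did not pass the threshold. Without LLC 1, the highest mouse, the log2-fold change of miR-143-3p was 0.20, and without LLC 2 it was 0.44 (adjusted p = 0.179, edgeR), so both mice move its size. With library totals in place of TMM it was 0.19, while the median of all expressed miRNAs moved from -0.023 to -0.17.

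Normalization mattered most for LLC 5. There the 5 most abundant miRNAs of the muscle took 68.5% of the counts, against 53.9 to 61.0% in the other 8 libraries, and the TMM factor was 0.762. Before TMM, miR-143-3p stood at 51319 CPM in LLC 5, inside the control range of 48065 to 60485 CPM, and after TMM it stood above that group. LLC 3 moved the other way, from 64019 CPM before TMM, above every control mouse, to a place inside the control range after it. On either scale 3 of the 5 LLC mice lay above every control mouse, LLC 1, 3 and 6 before TMM and LLC 1, 5 and 6 after it. Without LLC 5 the log2-fold change of miR-143-3p was 0.34, the same as with it.

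The guide arm of miR-145a, miR-145a-5p, was at about the same level in both groups. Its counts were 13152, 12372, 9033 and 9966 in control mice 1 to 4, and 9467, 12023, 11971, 7096 and 13895 in LLC mice 1, 2, 3, 5 and 6. In CPM, the control mice had 1781, 1639, 1599 and 1969. The LLC mice had 1599 CPM in mouse 1, 1958 in mouse 2, 1590 in mouse 3, 1401 in mouse 5 and 1593 in mouse 6. The highest mice were control 4 and LLC 2 and the lowest was LLC 5, and the groups overlapped. The mean was 1747 ± 167 CPM (SD, n = 4) against 1628 ± 203 CPM (SD, n = 5), a log2-fold change of -0.10 (SE 0.117, adjusted p = 0.641, edgeR). After TMM, the 95% interval of the fold, 0.784 to 1.11, does not reach the 1.5-fold minimum of the study in either direction. The size of this small difference moved with single mice and with the scaling. It was -0.024 on the log2 scale without control 4, -0.052 without LLC 5 and -0.18 without LLC 2. With library totals it was -0.24 (SE 0.181) and with RLE factors -0.061 (SE 0.113), and no interval of the fold is given for either. These scalings also moved the median of all expressed miRNAs, from -0.023 to -0.17 and to 0.020. On each scale miR-145a-5p lay below that median.

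The passenger arm of miR-145a, miR-145a-3p, had 408, 1181, 929 and 772 counts in control mice 1 to 4, and 917, 955, 1030, 687 and 1150 counts in LLC mice 1, 2, 3, 5 and 6. In CPM, the control mice had 55.3, 156, 164 and 153. The LLC mice lay between 132 CPM (mouse 6) and 156 CPM (mouse 2). Control 1 was apart from the other 8 libraries, and the LLC mice lay between it and the highest control mouse. The mean was 132 ± 51.5 CPM in control mice (SD, n = 4) and 143 ± 11.4 CPM in LLC mice (SD, n = 5), and the log2-fold change was 0.11 (SE 0.231, adjusted p = 0.789, edgeR). The sign of this value rests on 1 mouse, since it was -0.14 without control 1. Without control 2, 3 or 4 it was 0.22, 0.24 or 0.21. With library totals alone it was -0.015, a scaling that moved the median of all expressed miRNAs from -0.023 to -0.17. On both scales miR-145a-3p lay above that median.

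**Figure D1:**
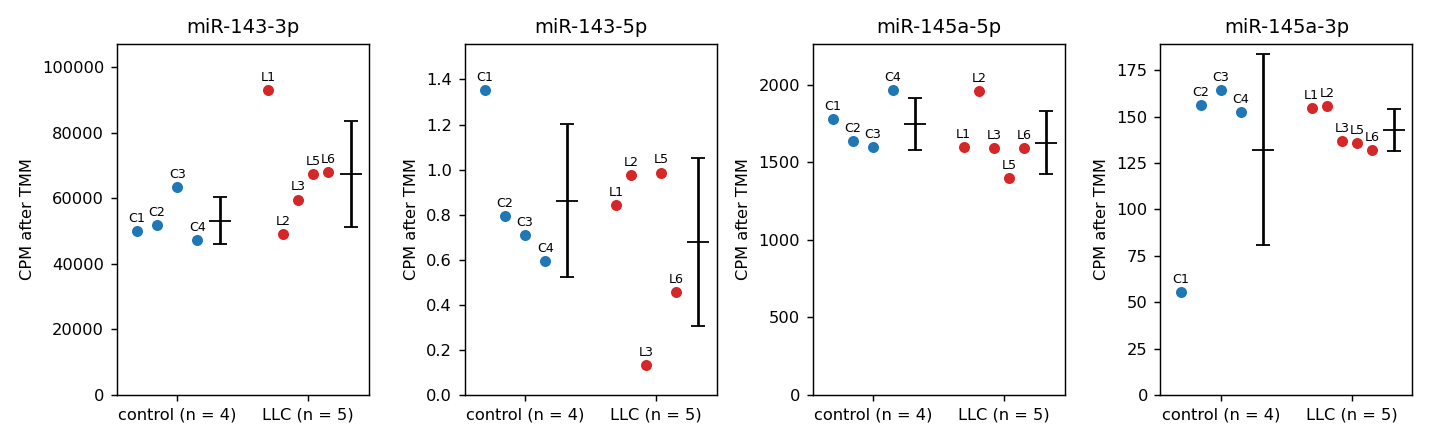
CPM after TMM normalization (y axis, linear and from 0) of the 4 arms in each of the 9 libraries (points, C for control and L for LLC with the mouse number), with the group mean and SD beside them. LLC 1 stands highest for miR-143-3p at 93177 CPM, and control 1 stands lowest for miR-145a-3p at 55.3 CPM.

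The passenger arm of miR-143, miR-143-5p, was found in every library but in few copies. It had 10, 6, 4 and 3 counts in control mice 1 to 4, and 5, 6, 1, 5 and 4 counts in LLC mice 1, 2, 3, 5 and 6. A floor of 3 counts, the limit of what these libraries resolve, is 0.383 to 0.601 CPM before TMM, and the level of miR-143-5p before TMM was 0.143 to 1.54 CPM. In all, the control mice gave 23 counts and the LLC mice 21, and no fold change of its CPM is given at this depth. The ratio of the miR-143 arms below rests on the same few counts. Because the reads carry no molecular identifiers and PCR copies are counted too, this floor and the exact intervals below cover counting error only.

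Of the 3 expressed arms, edgeR called 0, with the call set at a Benjamini-Hochberg adjusted p up to 0.05 together with a 1.5-fold difference, and its share of calls over the 304 expressed miRNAs was 0%. With p up to 0.05 before adjustment, 0 of the 3 passed, whereas 50 of the 304 (16.4%) did, of which 16 (5.26% of the 304) were higher in the LLC group. Groups that did not overlap in CPM were found for 0 of the 3 arms and for 18 of the 304 miRNAs (5.92%), of which 5 (1.64% of the 304) were higher in the LLC group. On the same 304, DESeq2's Wald test called 8 miRNAs and limma with voom called 0, and none of the 3 arms was among them. For miR-143-3p the DESeq2 p was 0.0385 before Benjamini-Hochberg adjustment and 0.256 after it. By unadjusted p, miR-143-3p was number 75 of the 304, miR-145a-5p number 190 and miR-145a-3p number 238.

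**Figure D2:**
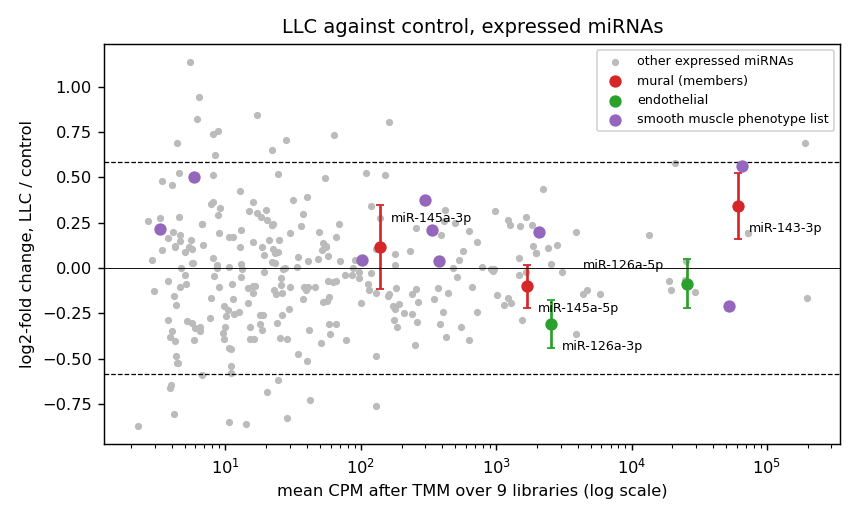
Log2-fold change of LLC over control (y axis) against mean CPM over the 9 libraries (x axis, log scale) for the 304 expressed miRNAs, with the expressed arms of miR-143 and miR-145a in red, the arms of miR-126a in green (bars are standard errors) and the smooth muscle phenotype list in purple. The dashed lines mark a fold change of 1.5, and the 3 red points lie between them.

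The arms differed in how much they varied between mice. Over the 9 libraries, the SD of log2 CPM was 0.313 for miR-143-3p, 0.158 for miR-145a-5p and 0.485 for miR-145a-3p. Ranked from the most to the least variable of the 304, these are places 115, 268 and 36. The value of miR-145a-3p rests on control 1, since over the other 8 libraries, a comparison added after seeing the data, its SD was 0.118 (place 290), below the 0.318 of miR-143-3p and the 0.165 of miR-145a-5p. The coefficient of variation of miR-143-3p was 13.3% among control mice and 24.2% among LLC mice, but 4.65% without control 3 and 14.6% without LLC 1. For miR-145a-5p it was 9.57% and 12.5%, but 5.71% without control 4 and 6.25% without LLC 2. For miR-145a-3p it was 39.0% among control mice, which became 3.87% without control 1, and 7.94% among LLC mice. Single mice thus set the size of several of these values. The 7.94% of miR-145a-3p among LLC mice moved little, to 7.34 to 8.65% with any 1 LLC mouse left out.

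The ratio of the clustered hairpins compares them within a library and needs no scaling between libraries. Per count of the miR-145a hairpin, both arms added, the miR-143 hairpin had 27.3, 29.0, 36.0 and 22.3 counts in control mice 1 to 4. In the LLC mice the ratio was 53.1 in mouse 1, 23.2 in mouse 2, 34.6 in mouse 3, 43.9 in mouse 5 and 39.5 in mouse 6. LLC 1, 5 and 6 lay above every control mouse, whereas LLC 2 lay near the lowest control mouse. The mean ratio was 28.6 ± 5.65 in control mice (SD, n = 4) and 38.8 ± 11.1 in LLC mice (SD, n = 5). On the log2 scale the LLC mean was higher by 0.41, with a 95% interval of -0.23 to 0.96, which did not pass the threshold (two-sided exact permutation test with every split into 4 and 5, p = 0.159). Adjusted over the 5 ratios compared (Benjamini-Hochberg of the exact permutation tests), the p was 0.268. The smallest p that these splits allow is 0.00794. With the guide arms alone, miR-143-3p over miR-145a-5p, the log2 difference was 0.42. Without LLC 1 the log2 difference of the hairpin ratio fell to 0.28, and without LLC 2 it rose to 0.58 (two-sided exact permutation test, p = 0.0571).

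**Figure D3:**
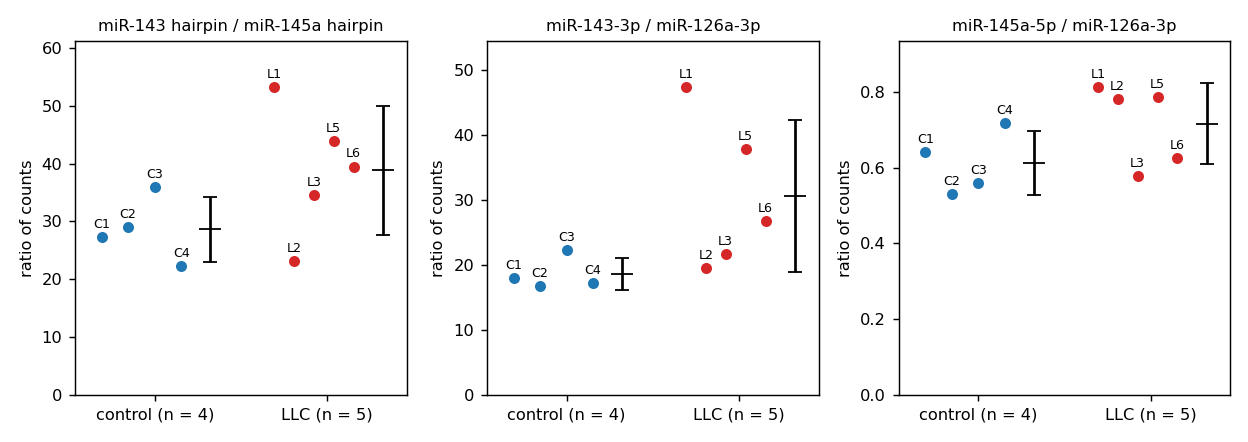
Ratio of counts (y axes, linear and from 0) of the miR-143 hairpin to the miR-145a hairpin, of miR-143-3p to miR-126a-3p and of miR-145a-5p to miR-126a-3p in each library (points), with the group mean and SD. In each panel 3 of the 5 LLC mice lie above every control mouse and the other LLC mice lie within the control range.

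Although both hairpins come from one locus, the guide arms did not vary together over the 9 libraries. Between miR-143-3p and miR-145a-5p, Pearson's r of log2 CPM was -0.67 and Spearman's rho was -0.80, and r was -0.61 after each group was centred on its own mean. This is a description of 9 libraries of differing depth and composition. It depended on the scaling, since r was -0.16 and rho -0.50 on library totals without TMM. After TMM, control 4 and LLC 2 had the lowest miR-143-3p and the highest miR-145a-5p. LLC 1 had the highest miR-143-3p, with miR-145a-5p at 1599 CPM as in LLC 3 and 6. Between the arms of miR-145a, r was -0.11 and rho 0.28 after TMM.

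**Figure D4:**
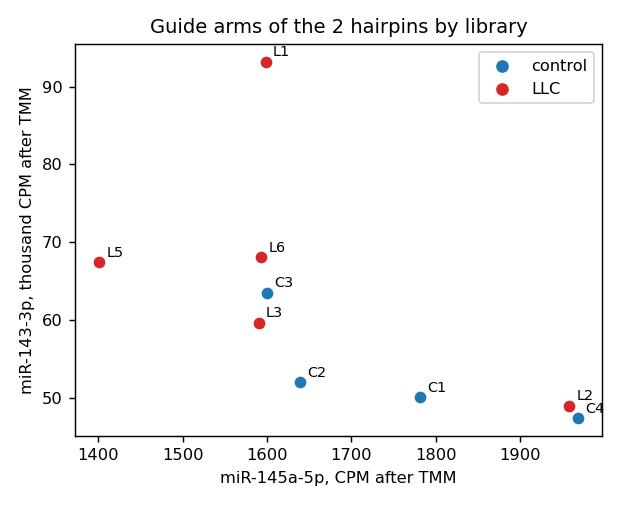
Level of miR-143-3p (y axis, CPM / 1000) against that of miR-145a-5p (x axis, CPM), both after TMM normalization, with 1 labelled point per library. The axes do not start at 0. Control 4 and LLC 2 lie at the lower right, and LLC 1 lies at the top, with 93177 CPM of miR-143-3p.

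The arms of each hairpin were strongly unequal, and in opposite order. In miR-143 the 3p arm held nearly all counts, and miR-143-5p made up 0.00169% of the hairpin in the control group (23 of 1361117 counts, 95% exact interval 0.00107 to 0.00254%) and 0.000939% in the LLC group (21 of 2237147 counts, 0.000581 to 0.00143%). These intervals pool the mice of a group and leave out the spread between them. Compared over mice, the log2 ratio of miR-143-3p to miR-143-5p was higher by 0.90 in the LLC group, with a 95% interval of -0.67 to 2.48 (two-sided exact permutation test, p = 0.214, adjusted over the 5 ratios 0.268). The single count in LLC 3 is below the floor of 3 counts, so the ratio of that mouse is not resolved. It allows 0.0253 to 5.57 counts (exact Poisson interval), and without that mouse the log2 difference was 0.42. A change of the miR-143 arms was not detectable at this depth.

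In miR-145a the 5p arm was the guide, and miR-145a-3p made up 8.12 ± 0.680% of the hairpin counts in the LLC group (SD, n = 5) and 7.06 ± 2.85% in the control group (SD, n = 4). Control 1 had 3.01% (95% exact interval 2.73 to 3.31%). Control 2, 3 and 4 had 8.71%, 9.33% and 7.19%, and the LLC mice had 7.36 to 8.83%. Thus 8 of the 9 libraries lay between 7.19 and 9.33%, and the interval of control 1 did not reach them. The log2 ratio of miR-145a-5p to miR-145a-3p differed by -0.34 between LLC and control, with a 95% interval of -1.33 to 0.25 (two-sided exact permutation test, p = 0.460, which stayed 0.460 adjusted over the 5 ratios). Without control 1 the difference was 0.051, so its direction rested on that mouse. Among the 74 hairpins with both arms expressed, the SD of the log2 arm ratio over the 9 libraries had a median of 0.372, and that of miR-145a was 0.528. This order also turned on control 1, for without it the SD of miR-145a was 0.153 and the median over the 74 hairpins was 0.381.

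**Figure D5:**
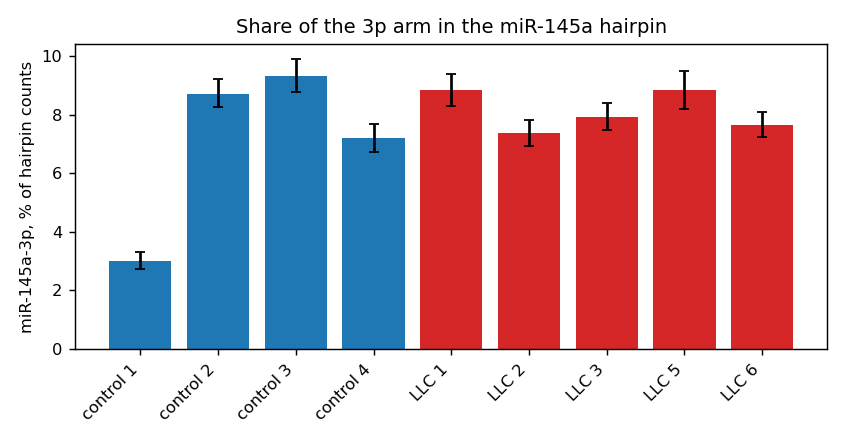
Share of miR-145a-3p in the counts of the miR-145a hairpin (y axis, percent, from 0) in each library, control in blue and LLC in red, with 95% exact binomial intervals. Control 1 is at 3.01% and the other 8 libraries are between 7.19 and 9.33%.

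The related miR-145b was close to absent. It had 0, 2, 6 and 2 counts in control mice 1 to 4, and 3, 3, 5, 5 and 3 in LLC mice 1, 2, 3, 5 and 6. The highest level was 0.705 counts per 1000 counts of miR-145a-5p, in LLC 5. The count of 0 in control 1 allows up to 3 counts, or 0.463 CPM before TMM. Any reads that the mapping shared between miR-145a-5p and miR-145b were therefore few beside those of miR-145a-5p.

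Mural cells cover the endothelium, and miR-126a, whose hairpin lies within the endothelial gene Egfl7, served as the endothelial comparator. The arm miR-126a-3p was used, since the counts of miR-126a-5p were nearly those of miR-126b-3p in each library (173057 against 173078 in control 1). Its mature sequence from RefSeq on GRCm38.p6 is printed as the denominator of the ratios, with the seed (bases 2 to 8) in capitals.
miR-126a-3p: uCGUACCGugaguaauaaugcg

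The level of miR-126a-3p was 2776, 3094, 2856 and 2742 CPM in control mice 1 to 4. In the LLC mice it was 1970 CPM in mouse 1, 2509 in mouse 2, 2752 in mouse 3, 1781 in mouse 5 and 2548 in mouse 6. After TMM, LLC 1 and 5 were lowest, and LLC 3 alone of the LLC mice reached the control range. On library totals LLC 6 reached it too, at 2837 CPM against 2721 to 3568 CPM in control mice. The log2-fold change of miR-126a-3p was -0.31 (SE 0.132, adjusted p = 0.284, edgeR). The other arm, miR-126a-5p, had a log2-fold change of -0.088 (SE 0.135, adjusted p = 0.721, edgeR), with means of 26718 ± 3422 CPM in control mice (SD, n = 4) and 25146 ± 2164 CPM in LLC mice (SD, n = 5).

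Per count of miR-126a-3p, miR-143-3p had 18.0, 16.8, 22.2 and 17.3 counts in control mice 1 to 4. In the LLC mice the ratio was 47.3 in mouse 1, 19.5 in mouse 2, 21.7 in mouse 3, 37.8 in mouse 5 and 26.7 in mouse 6. The control mice lay close together, while LLC 1, 5 and 6 lay above them and LLC 2 and 3 among them. The mean was 18.6 ± 2.48 (SD, n = 4) against 30.6 ± 11.7 (SD, n = 5), a log2 difference of 0.65 with a 95% interval of -0.01 to 1.45 (two-sided exact permutation test, p = 0.0635, adjusted over the 5 ratios 0.268). LLC 1 and 5, where this ratio was highest, also had the lowest miR-126a-3p. On library totals, where the ratio is the same, miR-126a-3p was 1726 CPM in LLC 1 and 1356 CPM in LLC 5, below the 2721 to 3568 CPM of the control mice. On that scale miR-143-3p was above the control range in LLC 1 and inside it in LLC 5, as given above. Without LLC 1 the log2 difference was 0.47.

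For miR-145a-5p the ratio to miR-126a-3p was 0.642, 0.530, 0.560 and 0.718 in control mice 1 to 4. It was 0.812 in LLC 1, 0.781 in LLC 2, 0.578 in LLC 3, 0.786 in LLC 5 and 0.625 in LLC 6. LLC 1, 2 and 5 lay above the control mice, although miR-145a-5p itself was not higher there than in every control mouse. The log2 difference was 0.22, with a 95% interval of -0.17 to 0.55 (two-sided exact permutation test, p = 0.167, adjusted over the 5 ratios 0.268). None of the 5 ratios passed the threshold before or after adjustment.

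The miRNAs closest in pattern to the guide arms were found by Pearson's correlation of log2 CPM over the 9 libraries, as a description, since the libraries share a scaling and the best of 304 are bound to be high. For miR-143-3p they were miR-3074-5p (r = 0.94, rho = 0.95), miR-30a-3p (r = 0.93, rho = 0.97), miR-151-3p (r = 0.92, rho = 0.77), miR-146b-5p (r = 0.91, rho = 0.88) and miR-671-3p (r = 0.86, rho = 0.65). After centring each group, r was 0.81 to 0.92 for these 5. With LLC 1 and control 4 left out, the libraries farthest from the median of miR-143-3p, r was 0.58 for miR-671-3p and 0.80 to 0.90 for the other 4. The 4 for which a sequence was read are printed so that their seeds, in capitals, can be compared, and no seed was shared between them. Of these, miR-146b-5p was at 6.40 CPM over the 9 libraries, so counting error weighs in its pattern.
miR-3074-5p: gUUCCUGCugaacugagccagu
miR-30a-3p: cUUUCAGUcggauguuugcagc
miR-146b-5p: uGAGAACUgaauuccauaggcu
miR-671-3p: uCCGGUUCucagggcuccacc

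For miR-145a-5p the closest were miR-101a-5p (r = 0.84, rho = 0.83), miR-24-2-5p (r = 0.79, rho = 0.82), miR-674-5p (r = 0.78, rho = 0.90), miR-1981-3p (r = 0.74, rho = 0.83) and miR-27a-3p (r = 0.74, rho = 0.87). Of these, miR-1981-3p and miR-674-5p had means of 3.75 and 4.50 CPM, so counting error weighs in their pattern. With control 4 and LLC 2 left out, r was 0.87 for miR-101a-5p and 0.56 to 0.65 for the other 4. No miRNA was among the closest 5 of both guide arms. The hairpins of miR-24-2-5p and miR-27a-3p lie in one cluster, from which mature positions 84208839 to 84208860 and 84208727 to 84208747 of chromosome 8 (GRCm38.p6) were read, and miR-27a-3p was at 1144 CPM over the 9 libraries. The position read for miR-3074-5p, the closest to miR-143-3p, was beside them, at 84208873 to 84208894 on the opposite strand.

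A list of other miRNAs with known roles in the phenotype of smooth muscle cells, which other cells of muscle make too, was set beside the cluster. Of its 10 miRNAs, 9 were expressed, 8 had a log2-fold change above 0 and 1 below, with 0 called and a median of 0.21. Over all 304 expressed miRNAs, 141 (46.4%) were above 0 and 163 below, with a median of -0.023. With library totals, a scaling added here after seeing the data, 6 of the 9 were above 0, as were 85 (28.0%) of the 304. The most abundant over the 9 libraries was miR-10a-5p, although in control mice miR-26a-5p, at 56513 CPM, stood above it. The level of miR-10a-5p was 51406 ± 12599 CPM in control mice (SD, n = 4) and 76071 ± 34363 CPM in LLC mice (SD, n = 5), with a log2-fold change of 0.57 (SE 0.279, adjusted p = 0.296, edgeR). The value for miR-21a-5p, which promotes proliferation of smooth muscle cells, was 0.20 (adjusted p = 0.326, edgeR), and for miR-26a-5p, the one below 0, it was -0.21 (adjusted p = 0.417, edgeR). LLC 5, the library with the lowest TMM factor, had 129205 CPM of miR-10a-5p, the highest of the 9.

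Markers of the other cells of muscle were measured in the same libraries, and their part in the values of miR-143 and miR-145a was not tested. Their counts of values above and below 0 are to be read beside the 141 and 163 of all 304, and the miRNAs whose groups did not overlap beside the 18 (5.92%) of all 304. Of the endothelial list, both arms were expressed and below 0, with 0 called and a median log2-fold change of -0.20. Of 5 fibroblast miRNAs, 4 were below 0 and 1, the most abundant miR-199a-3p (0.083), above it, with 0 called. With library totals all 5 were below 0, as were 219 of all 304. On both scales 1 of the 5 in the fibroblast list lay above the median of all 304. The summed CPM of this list was 3344 in LLC 5 and 1801 to 2427 in the other 8 libraries. Most of the sum in LLC 5 was miR-199a-3p, at 3122 CPM. The other 4 miRNAs of the list were each lower in LLC 5 than in every control mouse. For miR-199b-5p the groups did not overlap (log2-fold change -0.51, adjusted p = 0.214, edgeR). Of 7 muscle fiber miRNAs, 6 were expressed and all had values below 0 (median -0.28, 0 called), led in abundance by miR-133a-3p (-0.12). All 3 erythroid miRNAs were below 0 (median -0.76, 0 called), and their summed CPM was lowest in LLC 1 (92.4) and LLC 5 (110). The groups did not overlap for miR-451a (-0.76, adjusted p = 0.100, edgeR) and miR-144-5p (-0.83, adjusted p = 0.163, edgeR). Of 5 leukocyte miRNAs, 4 were above 0 and 1 below (median 0.067, 0 called). With library totals 2 were above and 3 below, where 85 of all 304 were above and 219 below. On both scales 4 of the 5 lay above the median of all 304. Among these leukocyte miRNAs the groups did not overlap for miR-150-5p, the most abundant (-0.38, adjusted p = 0.100, edgeR), and for miR-223-3p (0.70, adjusted p = 0.0936, edgeR). The mice with the highest ratio of miR-143-3p to miR-126a-3p, LLC 1 and 5, thus also had the lowest summed CPM of the erythroid list. They had the lowest of the leukocyte list too, at 583 CPM in LLC 1 and 638 CPM in LLC 5 against 689 to 800.3 CPM in the other 7 libraries. Most of these leukocyte sums was miR-150-5p (355 and 372 CPM in LLC 1 and 5) and miR-142a-5p (129 and 150 CPM). The rest of the list differed from them. In LLC 1 and 5 miR-223-3p lay above every control mouse, at 23.0 and 28.2 CPM. In LLC 5 miR-155-5p was the highest of all libraries (65.5 CPM). For miR-142a-3p, LLC 1 was the lowest library (14.5 CPM) and LLC 5 lay above every control mouse (21.9 CPM).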

How the data were processed

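The authors mapped single-end small RNA reads to the mature miRNAs of miRBase 21 with Bowtie, with every best alignment kept, and deposited the raw counts of each mature miRNA in one table per library. Isomers of a miRNA are therefore not resolved, and reads that fit several miRNAs are counted at each. The version of Bowtie is not given in the sources used here. Groups and mouse numbers come from the labels. Counts were normalized and tested in R 4.3.3 with edgeR 4.0.16 (TMM, quasi-likelihood F test, no block), where the 304 expressed miRNAs exceeded 32 counts in some library, with Benjamini-Hochberg adjustment over all of them. The 4 arms were taken by name. The miRNAs closest in pattern were the 5 with the highest Pearson's r of log2 CPM (prior count 2). From each list the most abundant miRNA and those whose groups did not overlap were named, and miR-21a-5p and miR-26a-5p were added after their values were seen. Ratios of counts were compared on the log2 scale by two-sided exact permutation in Python 3.11, and their 95% intervals come from inverting that test. The members, lists and ratios were chosen with earlier results of these data known. Alternatives were RLE factors, library totals, totals that leave out the top 5 miRNAs, the DESeq2 1.42.0 Wald test, limma 3.58.1 with voom, filterByExpr, no filter, at least 10 counts in every library, a replicate block, a pseudocount of 0.5, ratios without log, guide arms alone and each mouse left out. The edgeR test was checked on simulated data, and the permutation test on a case with a known answer. In the simulation edgeR called 27 of 68 miRNAs (39.7%) with a true 1.5-fold change, so many changes of that size would be missed. It called 63 of 65 (96.9%) with a 2-fold change and 4 of 725 (0.552%) with none. Within a group, the lowest chi-square statistic between libraries was 124 per degree of freedom (control 3 and 4), and every library was kept as its own replicate. Whether mice of a group shared a cage or litter is not given in the sources used here, and a number shared by a control and an LLC mouse does not mark one animal. Figures were drawn with matplotlib 3.10.9.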

Additional observations from a re-analysis of the deposited data

Results flagged for a closer look

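Of 20 sets of values (4 arms, miR-126a-3p and 5 ratios, each in both groups), 3 held a mouse whose gap to its nearest neighbour took more of the range than Dixon's 95% value allows, where chance gives about 1 in 20. In the control group, control 1 was far below the others for miR-145a-3p, with 55.3 CPM (gap 0.890 of the range, limit 0.829), and far above them for the ratio of miR-145a-5p to miR-145a-3p, with 32.2 against 9.72 to 12.9 (gap 0.858). Both flags rest on the same 408 counts of miR-145a-3p and are not independent. In the LLC group, LLC 3 was far above the others for the ratio of miR-143-3p to miR-143-5p, with 449185 (gap 0.753, limit 0.71), which rests on a single count of miR-143-5p.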

How the results depend on the processing

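The log2-fold change of miR-143-3p kept its direction and stayed below the threshold in all 18 alternatives, from 0.19 to 0.44, with adjusted p from 0.179 to 0.769. Before adjustment its p was 0.0212 with edgeR without a filter, 0.0385 with DESeq2, 0.0282 without LLC 2 and 0.0456 without control 3. That of miR-145a-5p kept them in 17 and was 0.031 with the replicate block. That of miR-145a-3p was below 0 with library totals alone (-0.015), where the median of all expressed miRNAs was lower still, at -0.17. It was also below 0 without control 1 (-0.14), and the cause of this was not tested. The number of called miRNAs, 0 with edgeR, was 8 with DESeq2's Wald test and 22 without a filter on low counts, where 932 miRNAs were tested. With each mouse left out it was 0 to 8, with 1 called without LLC 1 and 8 without LLC 3. The ratios passed the threshold in no alternative, and the one reversal was 0.051 for the miR-145a arm ratio without control 1. With each mouse left out, the log2 difference of the hairpin ratio was 0.28 to 0.58, that of miR-143-3p over miR-143-5p 0.42 to 1.21, that of the miR-145a arms -0.53 to 0.051, and those over miR-126a-3p 0.47 to 0.79 and 0.16 to 0.30. Mean CPM on library totals moved by less than 1 SD for each arm and group. Same-numbered mice were not paired, with correlations of their deviations from the group means of -0.23, -0.090 and -0.25. With the replicate block the log2-fold changes were 0.24 for miR-143-3p and 0.39 for miR-145a-3p, the count of calls stayed 0, and over the 3 same-numbered pairs the hairpin ratio differed by 0.19, where no p below 0.25 is possible. The depth limits miR-143-5p and miR-145b, with at most 10 counts in a library.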

Other observations

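The departure of control 1 in the miR-145a arms was set beside the arms of the other hairpins. In control 1, the log2 ratio of the 5p to the 3p arm of miR-145a was 1.55 above the median of the other libraries. Over all 74 hairpins with both arms expressed, the same difference had a median of -0.10 and was above 0 in 30. In size, that of miR-145a was number 2 of the 74, after miR-379 at -1.67, which had as few as 2 counts in a library, and number 1 of the 25 hairpins with at least 100 counts of each arm in every library. Whether this lies in the mouse or in the library was not tested.

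On library totals without TMM, miR-145a-5p varied with miR-126a-3p over the 9 libraries (Pearson's r = 0.87, rho = 0.62), and after TMM less so (r = 0.48, rho = 0.33). For miR-143-3p and miR-126a-3p the values were -0.023 and 0.083 on totals and -0.66 and -0.37 after TMM. These are descriptions that depend on the scaling.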
